A study of Mus musculus with 21 samples.

Results

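RNA-seq counts from the VH of HFD → RC mice were set against those of RC → HFD mice, the DS groups that the study treats as matched in weight while their present diets are opposite. Members were taken by the group name in each library's title, which gave 11 of the 21 libraries, 5 of HFD → RC and 6 of RC → HFD. Every direction below is HFD → RC over RC → HFD, so a positive log2 fold change means more reads in mice that were eating RC at the end. The High Filter, a mean of 50 or more reads over the 21 libraries, kept 12768 of the 21654 genes listed, and these genes hold 99.6% of the reads.

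Male C57BL/6J mice (C57/BL6 in the labels), bought at 12 to 14 weeks of age, ate regular chow (RC) or a high-fat diet (HFD) for 8 to 10 weeks. The RC → HFD and HFD → RC groups then ate the other diet for 7 days, while RC NoDS and HFD NoDS (5 libraries each) kept theirs. All mice were kept awake for 3 hours by giving them unfamiliar objects, and brains were taken at ZT6 by the labels, or between ZT6 and ZT7 by the study's methods. Each library was made from hypothalamic punches of 2 mice of the same group pooled in equal amounts, so differences between mice of a pool cannot be seen. Body weight of the pooled mice is not part of the deposited counts.

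Neurons of the arcuate nucleus sense leptin, insulin, ghrelin and nutrients. One population makes the hunger peptides AgRP and NPY and is most active when energy is short, and a neighbouring population makes POMC and CART, whose products lower intake. Glial cells in the same tissue, among them tanycytes, astrocytes, microglia and the oligodendrocytes that wrap axons in myelin, pass on nutrients and signals to these neurons.

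The reads counted on genes summed to between 16381363 and 16390598 per library in the 11 libraries, since all libraries had been re-sampled to a common depth. The share of genes averaging 5 to 50 reads that had no read was 9.24%, 20.5%, 5.68%, 15.1% and 31.9% in HFD → RC replicates 13 to 17, and ran from 2.31% to 22.4% in RC → HFD. Both groups therefore held libraries with many and with few genes at 0, and their means of 16.5 ± 10.3% (SD, n = 5) and 11.9 ± 8.82% (n = 6) differed by less than the spread within a group (exact permutation p = 0.433). The difference of 4.57 in percent became 0.727 when HFD → RC replicate 17 was left out, or 7.27 when replicate 15 was. The 10 most abundant genes took 2.60 ± 0.160% of reads in HFD → RC and 2.49 ± 0.0684% in RC → HFD (exact permutation p = 0.156). This difference, 0.110 in percent, became 0.0512 without HFD → RC replicate 14 and 0.160 without replicate 16. Without replicate 16 its Benjamini-Hochberg adjusted p by the exact permutation test was 0.0571. HFD → RC libraries had reads on 16653.6 ± 686 genes on average and RC → HFD libraries on 16981.3 ± 778 (exact permutation p = 0.450). The difference of −328 genes became −97.6 without HFD → RC replicate 17 and −512 without replicate 15. With all 11 libraries the Benjamini-Hochberg adjusted p was 0.450 for each of these 3 measures. The smallest p that 5 libraries against 6 allow is 0.00433. No pair of libraries was identical, and in 25 pairs within a group the chi-square between libraries was 6.89 to 31.2 times its degrees of freedom, where pure read sampling would give a ratio near 1.

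The tissue label was checked against marker genes. Among the arcuate markers *pomc* had 5182 to 11263 reads per library, *npy* 1390 to 5214, *ghrh* 346 to 784 and *kiss1* 50 to 162. The ventromedial markers *nr5a1* (981 to 2235 reads) and *fezf1* (735 to 1660) and the tanycyte markers *col23a1* (2168 to 4333), *gpr50* (909 to 1888) and *rax* (120 to 481) were read in all 11 libraries. These are markers of the ventral hypothalamus that the labels name. The study also counts the paraventricular nucleus in its punch. Among its markers *avp* had 2924 to 16531 reads, *oxt* 2265 to 8634 and *trh* 999 to 2047. By contrast *sim1* had 8 to 95, and *crh* had at most 38 and was at 0 in 2 of the 11 libraries. Cortical markers were near 0: *tbr1*, *neurod6* and *neurod2* had 15, 14 and 10 reads at most and were at 0 in 8 of the 11 libraries each, and *slc17a7* had at most 8. Choroid plexus markers were mixed: *ttr* had at most 74 reads and *kcne2* at most 3, while *clic6* had 718 to 997 and *kl* 138 to 429 in the 11 libraries. Of the lateral hypothalamic markers, *pmch* ranged from 534 to 2234 reads, *hcrt* from 58 to 437 and *qrfp* from 24 to 260.

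EdgeR called 1 of the 12768 genes (0.00783%) at a Benjamini-Hochberg adjusted p under 0.15. An unadjusted p under 0.05, which a share of 0.05 of genes would have by chance, was found for 683. DESeq2 called 5, among them *npy*, *agrp*, *dhrs3* and *myo5b*, and limma-voom 1, *npy*. Of all genes tested, 6388 were higher and 6380 lower in HFD → RC, and the medians were 0.00012 for the log2 fold change and 0.129 for its standard error, and 9 in 10 log2 fold changes lay between −0.26 and 0.31. In 62 genes (0.486%) the groups had separate ranges of counts, 36 with all 5 HFD → RC libraries above all 6 RC → HFD libraries (0.282%) and 26 below (0.204%). If the 11 libraries were divided at random into 5 and 6, a share of 0.00433 of genes would be separate, which is near the share found. Separate ranges alone therefore do not set these genes apart from chance. Leaving out 1 library raised the number of called genes to 3 without HFD → RC replicate 15 (*npy*, *agrp* and *nxph4*) or HFD NoDS replicate 23 (*npy*, *anln* and *agrp*), to 2 without HFD → RC replicate 17 (*npy* and *rbm3*) and to 41 (0.321%) without HFD → RC replicate 16. It was 1, *npy*, in each of the other 17 fits. Non-overlapping genes numbered 89 to 225 when 1 of the 11 libraries was left out, a step that can only keep or raise their number and that makes separation by chance more frequent. The highest of these numbers was again that without replicate 16, and leaving out HFD → RC replicate 13, 14, 15 or 17 gave 109, 110, 154 and 123.

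**Figure D1:**
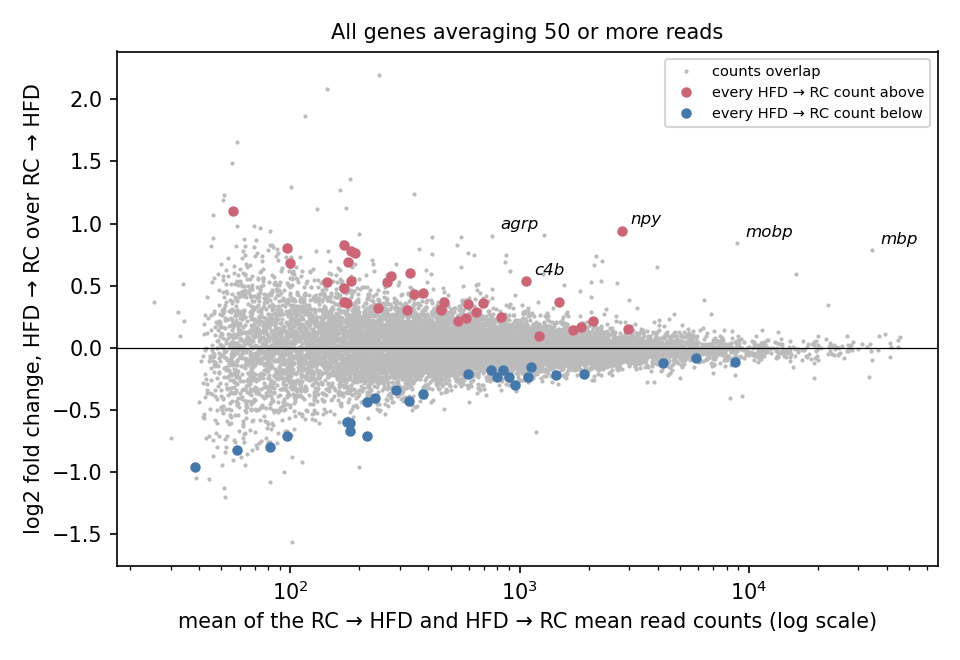
Log2 fold change of HFD → RC over RC → HFD (vertical axis) against the mean of both group mean read counts (horizontal axis, log scale) for the 12768 genes tested. Red and blue points are the 36 and 26 genes whose counts did not overlap between the groups, and *npy* combines a high count with a log2 fold change of 0.94.

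*Npy*, which encodes a peptide that drives feeding, was the called gene. Its counts in HFD → RC replicates 13 to 17 were 3058, 5214, 2669, 2832 and 4574, and in RC → HFD they ran from 1390 through a median of 1937 to 2295. The lowest HFD → RC library was above the highest RC → HFD library, and replicates 14 and 17 were the highest. The rise of *npy* was 0.94 in log2 units (adjusted p = 0.0116, standard error 0.151), and leaving out each of the 21 libraries gave values from 0.78 to 1.03, all called, while edgeR with a robust dispersion did not call it (0.94, adjusted p = 0.530). *Agrp*, which encodes the antagonist of melanocortin receptors made by the same neurons, had 998, 1276, 623, 544 and 1476 reads in HFD → RC, and 426 to 629 in RC → HFD with a median of 536. Replicates 13, 14 and 17 were above all RC → HFD libraries while 15 and 16 lay inside their range, so the 3 libraries highest in *npy* were also the highest in *agrp*. Its log2 fold change of 0.90 (standard error 0.188) was not called (adjusted p = 0.303), and it was called in 3 of the 21 fits that left out 1 library, in which HFD → RC replicate 15 (log2 fold change 1.02), HFD → RC replicate 16 (1.06) or HFD NoDS replicate 23 (0.90) was the library left out. Summed, the 2 hunger peptides had 4056, 6490, 3292, 3376 and 6050 reads in HFD → RC and 1816 to 2833 in RC → HFD. Of this list, 1 of 2 genes was called against 0.00783% of all genes. Fewer cells of a type and less RNA per cell cannot be told apart in pooled tissue.

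The satiety peptides lay the other way without a call, where 0.00783% of all genes were called. *Pomc*, the precursor of α-MSH, had 5417, 9866, 8488, 6700 and 5182 reads in HFD → RC and 5919 to 11263 in RC → HFD (median 9989.5). Replicates 13 and 17 were below all RC → HFD libraries and the others lay inside their range. *Cartpt*, which encodes CART, had 2752, 3409, 2351, 4147 and 3575 reads in HFD → RC against 2943 to 4729 in RC → HFD (median 4038.5). Here replicates 13 and 15 were below the RC → HFD range. The log2 fold changes were −0.40 for *pomc* (standard error 0.170) and −0.28 for *cartpt* (standard error 0.125), each with an adjusted p of 0.899. *Pomc* and *cartpt* were lower in each of the 21 fits that left out 1 library, from −0.55 to −0.30 and from −0.38 to −0.18. The 12 arcuate markers had a median log2 fold change of −0.044, or 0.0098 without replicate 16, with 5 higher and 7 lower (7 higher without replicate 16), *npy* and *agrp* being among the 5 and *pomc* and *cartpt* among the 7. Their summed reads were 16198, 26481, 18477, 19387 and 20120 in HFD → RC and 14969 to 23907 in RC → HFD.

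**Figure D2:**
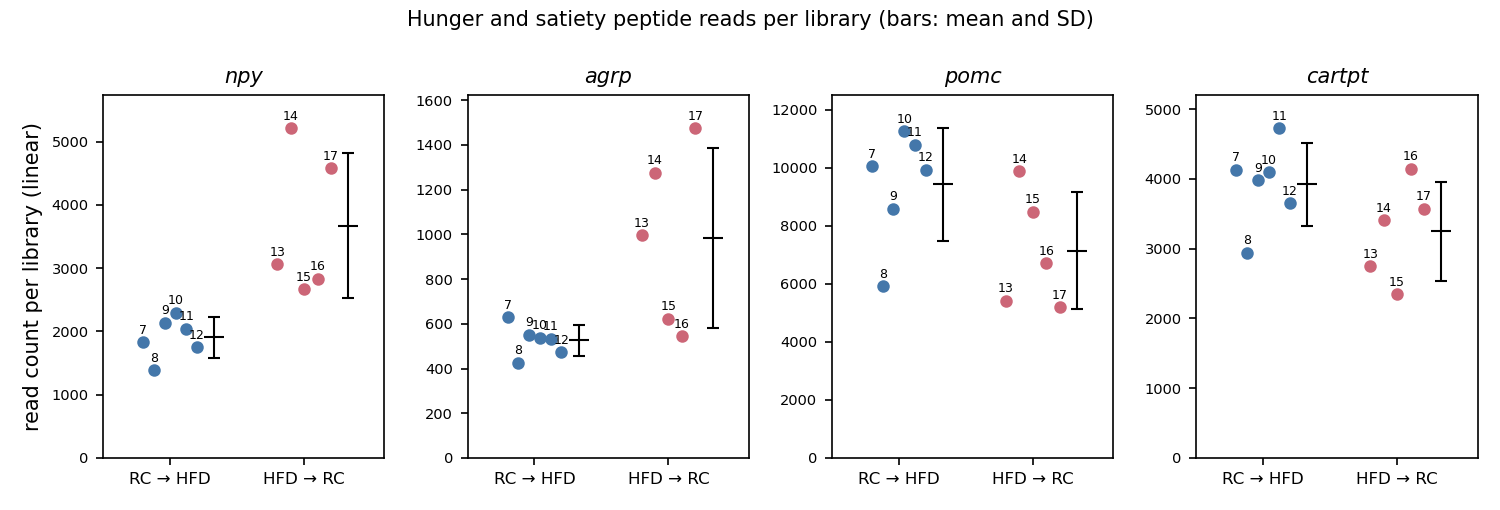
Read counts per library (vertical axis, linear) of *npy*, *agrp*, *pomc* and *cartpt* in RC → HFD (6 libraries) and HFD → RC (5 libraries), with replicate numbers beside the points and bars for the group mean and SD. All HFD → RC libraries were above 2295 reads of *npy*, the highest RC → HFD count, and for *agrp* replicates 15 and 16 fell among the RC → HFD libraries.

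The same contrast of present diets can be taken between mice that were never switched, RC NoDS over HFD NoDS, and these libraries are not shared with the DS groups. In that pair the log2 fold change was 1.26 for *npy* (adjusted p = 7.79e-05) and 0.97 for *agrp* (adjusted p = 0.0507). The difference between the contrasts has the same terms as HFD → RC over RC NoDS plus HFD NoDS over RC → HFD. A difference above 0 therefore means more reads after earlier HFD than after earlier RC, taken over both present diets. Tested in the same fit, the difference was −0.32 for *npy* (adjusted p = 0.784, standard error 0.218) and −0.063 for *agrp* (adjusted p = 0.978, standard error 0.272). For *agrp* it was above 0 when HFD → RC replicate 15 (0.060), HFD → RC replicate 16 (0.091) or HFD NoDS replicate 19 (0.049) was left out. Neither difference was called. Over all 12768 genes the log2 fold changes of the contrasts had a Pearson r of −0.063 and a Spearman rho of −0.057 across genes, which are not independent replicates, and 48.5% of genes had the same sign. Of the 36 non-overlapping genes that were higher in HFD → RC, 18 were also higher in RC NoDS, and of the 26 that were lower 14 were also lower.

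Upstream sequence was looked up for the 2 hunger peptide genes *npy* and *agrp* and for 2 myelin genes described further on, *mobp* and *ermn*, and 3 of these 4 genes had an entry in the RefSeq promoter table (GRCm38.p6), *agrp* having none. The 250 bases before each start are printed in the direction of the gene, and each matched the mm9 genome at 1 place. Motifs searched on both strands were TTCNNNGAA, bound by STAT factors, GTAAACA, bound by FOXO factors, TGACGTCA, bound by CREB, CACGTG, an E-box, TATAAA, and ACAAAG, bound by SOX factors, and matches are in capitals. Of 32851 RefSeq windows of the same length, 7.02%, 3.17%, 1.55%, 6.02%, 12.4% and 16.5% held them in that order.
*npy*, plus strand, chr6:49772459-49772708: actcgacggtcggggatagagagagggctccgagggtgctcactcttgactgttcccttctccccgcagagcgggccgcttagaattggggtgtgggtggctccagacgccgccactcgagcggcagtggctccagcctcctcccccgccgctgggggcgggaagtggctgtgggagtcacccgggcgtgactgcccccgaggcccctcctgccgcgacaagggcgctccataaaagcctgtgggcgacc
*mobp*, plus strand, chr9:120058610-120058859: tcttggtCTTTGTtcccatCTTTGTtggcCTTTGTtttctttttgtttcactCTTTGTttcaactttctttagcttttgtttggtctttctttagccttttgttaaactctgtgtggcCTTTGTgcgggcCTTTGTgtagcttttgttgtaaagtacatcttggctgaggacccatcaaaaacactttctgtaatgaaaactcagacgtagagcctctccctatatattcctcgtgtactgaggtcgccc
*ermn*, minus strand, chr2:57905276-57905525: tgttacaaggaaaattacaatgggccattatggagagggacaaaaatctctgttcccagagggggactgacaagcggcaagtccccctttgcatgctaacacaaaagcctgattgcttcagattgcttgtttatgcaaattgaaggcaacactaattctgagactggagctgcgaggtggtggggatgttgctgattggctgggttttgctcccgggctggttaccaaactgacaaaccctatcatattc
The *npy* and *ermn* windows held 0 matches, which says that these letters are not in these windows. The *mobp* window held 6 matches to ACAAAG, all on the minus strand, and 1 of the 32851 windows held that many. G and C made up 69.2% of the *npy* window, 40.8% of that of *mobp* and 47.2% of that of *ermn*.

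Receptors and signalling genes through which these peptides and the hormones of energy balance act showed no call with all libraries. This is near the share over all genes, 0.00783%. Of 27 tested feeding receptors and their ligands 14 were higher and 13 lower, with a median log2 fold change of 0.0068, or −0.029 without replicate 16, beside 0.00012 over all genes. *Npy1r*, a receptor for NPY, had 336, 240, 423, 530 and 467 reads in HFD → RC and 433 to 623 in RC → HFD, and 3 of the 5 were below all RC → HFD libraries (log2 fold change −0.36, standard error 0.156, adjusted p = 0.899, and −0.23 without replicate 14). *Bdnf* had 341, 421, 472, 352 and 328 reads against 244 to 344 (log2 fold change 0.34, standard error 0.152), while its receptor *ntrk2*, the most read gene of the list, was at 0.017. *Brs3*, a receptor gene chosen after its values were seen, had 89, 22, 44, 189 and 14 reads in HFD → RC. Its log2 fold change was −0.88 with all libraries (adjusted p = 0.917) and −1.63 without replicate 16 (adjusted p = 0.0940), the library with 189 reads. Among 19 genes of leptin and JAK-STAT signalling the median was −0.022, with 8 higher and 11 lower, and *socs3*, which leptin signalling induces, had 148, 222, 147, 231 and 217 reads against 192 to 382 (log2 fold change −0.39, standard error 0.196, adjusted p = 0.939, and −0.24 without RC → HFD replicate 11). *Ptpn11*, the most read gene of that list, was at 0.051. In 29 genes of insulin and FOXO signalling the median was 0.019, or 0.0033 without replicate 16, and −0.010 in a fit that also held an estimate of how many distinct molecules each library had (the molecule covariate). The adaptors *irs4* (log2 fold change −0.21, standard error 0.103) and *irs1* (−0.34, standard error 0.190, and −0.21 without replicate 17) lay below 0. Of 21 energy-sensing genes 12 were higher (median 0.049, or 0.024 without replicate 16), *prkab2*, a subunit of AMP-activated kinase, was at −0.37 (standard error 0.141) with 4 of 5 libraries below all RC → HFD libraries, and *ucp2* at 0.094.

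Ranked by p among the non-overlapping genes, the genes after *npy* on the higher side included *dhrs3*, *adora1*, *pygl*, *gpr6*, *sox8*, *fbxl21*, *gal3st1*, *med17*, *c4b* and *grb14*. The log2 fold changes of these genes ran from 0.36 to 0.82 and their adjusted p from 0.590 to 0.764, so they are a ranking and not calls. *Adora1*, the inhibitory adenosine receptor through which time awake acts on neurons, had 1799, 1925, 1655, 1401 and 1570 reads in HFD → RC and 1176 to 1359 in RC → HFD (median 1332). Replicate 16 was the nearest to the RC → HFD range. The log2 fold change was 0.36 (adjusted p = 0.633, standard error 0.0932), and 0.42 without replicate 16 (adjusted p = 0.0722). *Pygl*, the liver form of glycogen phosphorylase, had 417, 388, 305, 333 and 567 reads against 222 to 290 (median 273) and a log2 fold change of 0.60 (standard error 0.157), and it too was called without replicate 16 (0.67, adjusted p = 0.128). *Dhrs3*, a retinal reductase, had 301, 307, 258, 299 and 397 reads against 189 to 232, and *fbxl21*, an F-box protein that acts on clock cryptochromes, 235, 195, 174, 255 and 238 against 56 to 171. In *fbxl21* the gap between the groups was 3 reads. Another 2 of these genes belong to oligodendrocytes, *sox8*, a transcription factor (log2 fold change 0.36), and *gal3st1*, which makes the myelin lipid sulfatide (0.78). *Grb14*, an inhibitor of the insulin receptor, had 381, 380, 415, 372 and 448 reads against 253 to 326 (log2 fold change 0.43).

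On the lower side the first 12 were *raph1*, *fbxw9*, *ddx46*, *cdyl*, *rbm28*, *cisd3*, *dcun1d1*, *btbd9*, *pear1*, *march11*, *akap8l* and *zfp81*, with log2 fold changes from −0.96 to −0.21 and adjusted p from 0.639 to 0.899. *Raph1*, which links RAS signals to the actin skeleton, had 184, 107, 113, 175 and 126 reads in HFD → RC and 194 to 260 in RC → HFD (log2 fold change −0.67, standard error 0.186). *Ddx46* and *rbm28*, which act in splicing and ribosome assembly, were at −0.24 and −0.30. *Btbd9*, whose human counterpart is associated with restless legs syndrome, had 1334, 1245, 1398, 1292 and 1383 reads against 1408 to 1819 (log2 fold change −0.22). The nearest libraries of the groups were thus 1398 and 1408 reads in *btbd9*, and 184 and 194 in *raph1*. None of the 12 was called in the fits that left out 1 library. Judged on TMM-normalized counts, 55 of the 62 genes had no overlap. Genes on the other strand overlap *adora1* (*mybph*), *pygl* (*f730035m05rik*), *fbxw9* (*a230103j11rik*), *raph1* (*gm11576*), *pear1* (*insrr*), *dcun1d1* (*gm15952*) and *btbd9* (*gm9874*). The kit was stranded, and whether the counting used the strand is not stated. Of the genes named further on, *arsg*, *rbm3*, *ermn*, *mbp*, *enpp6*, *gpr17*, *alas2*, *igf2*, *cga*, *gfap*, *s100b*, *slc32a1*, *pmch*, *hmx3*, *foxb1*, *six3*, *pde10a*, *pcsk1n*, *thra*, *egr1*, *jund*, *rora*, *tef*, *hrh3*, *errfi1*, *lss* and *rpl31* have such a neighbour as well, as do *irs1*, *irs4* and *prkab2*, and *prr18* shares its strand with *sft2d1*.

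Genes of myelin had log2 fold changes above 0, and the list was not tested as a set. All 18 of 18 tested myelin and oligodendrocyte genes had a log2 fold change above 0, with a median of 0.48 (range 0.019 to 0.85) beside 0.00012 over all genes, and the median was 0.48 with scaling by library size and with DESeq2's size factors as well. None of the 18 was called by edgeR with all libraries (0.00783% of all genes), and none had counts without overlap (0.486% of all genes). These counts of 0 are near the shares over all genes. *Mbp*, which encodes myelin basic protein and was the most read of them, had 50853, 74724, 39514, 21031 and 32574 reads in HFD → RC and 21187 to 32240 in RC → HFD (median 23840). Replicate 16 was below all RC → HFD libraries and the other 4 were above them all. *Mobp*, a further structural protein of myelin, had 15120, 17755, 10411, 5569 and 8480 reads against 4910 to 8030 (median 6128), and *ermn*, a cytoskeletal protein of oligodendrocytes, 828, 1013, 583, 416 and 559 against 218 to 461 (median 403). In both, replicates 13, 14, 15 and 17 were above the RC → HFD range and replicate 16 was inside it. The log2 fold changes were 0.78 for *mbp* (adjusted p = 0.688, standard error 0.229), 0.85 for *mobp* (adjusted p = 0.639, standard error 0.225) and 0.83 for *ermn* (adjusted p = 0.639, standard error 0.230). Reads summed over the 18 genes were 115826, 153681, 92358, 53539 and 74208 in HFD → RC replicates 13 to 17, and 52405 to 75740 in RC → HFD with a median of 59354. Replicates 13, 14 and 15 were above all RC → HFD libraries, 17 lay just under the highest of them, and 16 near the lowest.

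Without replicate 16, 41 genes were called (0.321%), 36 higher and 5 lower, and all 41 had the same direction with all libraries. The 5 lower genes were *zfp184*, *birc2*, *n4bp2*, *tmem131* and *brs3*, named after their values were seen. Of the 18 myelin genes 6 were then called, *mbp* (log2 fold change 0.96, adjusted p = 0.0701), *mobp* (1.02, adjusted p = 0.0645), *ermn* (0.96, adjusted p = 0.0980) and, named after their values were seen, *mal* and *mag* among them, and the median of the list was 0.67. Leaving out replicate 14, the library with the most myelin reads, gave lower values, 0.50 for *mbp*, 0.63 for *mobp* and 0.64 for *ermn*, and no call of them. Other genes called without replicate 16 were outside that list. *Anln*, an actin-binding protein, had 586, 750, 367, 244 and 489 reads in HFD → RC and 132 to 306 in RC → HFD (log2 fold change 1.24, standard error 0.275). Leaving out replicate 16 (1.41, adjusted p = 0.0501) or HFD NoDS replicate 23 brought a call. *Prr18* had 1100, 1420, 1091, 588 and 1124 reads against 515 to 910, and *arsg*, a lysosomal sulfatase, 510, 515, 493, 265 and 587 against 262 to 360. *Nxph4*, a secreted neurexophilin, differed from them, with 680, 104, 24, 119 and 243 reads against 26 to 101 and a log2 fold change of 2.08, or 1.14 when replicate 13 was left out. Of the 36 genes called higher without replicate 16, 30 were lower in RC NoDS than in HFD NoDS, as were 6587 of the 12768 genes tested.

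Of 6 genes of oligodendrocyte precursors 4 were higher, with a median of 0.19, and none was called with all libraries (0.00783% of all genes). *Enpp6*, which marks oligodendrocytes that are just forming, had 92, 149, 67, 43 and 60 reads in HFD → RC and 8 to 47 in RC → HFD. The log2 fold change of 1.48 (adjusted p = 0.633, standard error 0.383) became 1.65 without replicate 16 (adjusted p = 0.0979). *Gpr17*, a receptor of committed precursors, had 1936, 1940, 1816, 1547 and 1459 reads against 1236 to 1514, so 4 of 5 libraries were above the RC → HFD range (log2 fold change 0.27, standard error 0.0827). The summed reads of the 6 genes were 3836, 3818, 3890, 3436 and 3323 against 3090 to 3364, a narrower spread than that of the myelin genes. *Myrf*, a regulator of myelin genes, is in the table under its older symbol *gm98*, was therefore not counted in the myelin list, and is described after its values were seen. It had 1162, 1745, 1227, 617 and 724 reads in HFD → RC and 474 to 834 in RC → HFD, so replicates 13, 14 and 15 were above that range. The log2 fold change of *gm98* was 0.74 (adjusted p = 0.639, standard error 0.206), and 0.89 without replicate 16 (adjusted p = 0.0701).

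In unswitched mice the myelin genes lay the other way round, and none of the 18 was called there, where 10 of the 12768 genes were. Between RC NoDS and HFD NoDS 17 of the 18 genes were lower on RC (median log2 fold change −0.46), and their summed reads ran from 45136 to 66083 in RC NoDS and were 67284, 110521, 61023, 107809 and 53296 in HFD NoDS replicates 19, 20, 21, 23 and 24. HFD NoDS replicates 20 and 23 were far above the RC NoDS range, 19 just above it and 21 and 24 inside it. The difference between the contrasts was called for 9 of 12768 genes (0.0705%), all 9 with a positive value, that is, more reads after earlier HFD. By the size of the difference these were *trh*, *mobp*, *c4b*, *mbp*, *gfap*, *prr18*, *plekhh1*, *adora1* and *stmn4*, of which *plekhh1* and *stmn4* are named after their values were seen. The difference was 1.56 for *mobp* (adjusted p = 0.0891, standard error 0.327), 1.50 for *mbp* (adjusted p = 0.142, standard error 0.332) and 0.71 for *adora1* (adjusted p = 0.0628, standard error 0.135). *Trh*, the thyrotropin-releasing hormone gene, had a difference of 1.95 (adjusted p = 2.62e-05) beside a log2 fold change of −1.79 between the unswitched groups and 0.16 between the DS groups (standard error 0.154). The last of these was 0.34 without RC → HFD replicate 12, the library with 2047 *trh* reads, and 0.094 without RC → HFD replicate 11. The number of called differences depended strongly on single libraries. It was 2 without RC NoDS replicate 1, RC NoDS replicate 2 or HFD → RC replicate 14, and 3 without RC NoDS replicate 5 or RC → HFD replicate 9, 10 or 11. It was 4 without RC → HFD replicate 8 or HFD NoDS replicate 20 or 23, 6 without HFD → RC replicate 13, 14 without HFD → RC replicate 17, 18 without RC → HFD replicate 12, 19 without HFD NoDS replicate 21 and 20 without RC NoDS replicate 3. It reached 31 without RC NoDS replicate 6, 32 without HFD NoDS replicate 24 and 70 without HFD → RC replicate 16. *Trh* and *c4b* were called in 21 of these 21 fits, *adora1* in 18, *prr18* in 11, *mobp* and *gfap* in 10 each and *mbp* in 8.

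**Figure D3:**
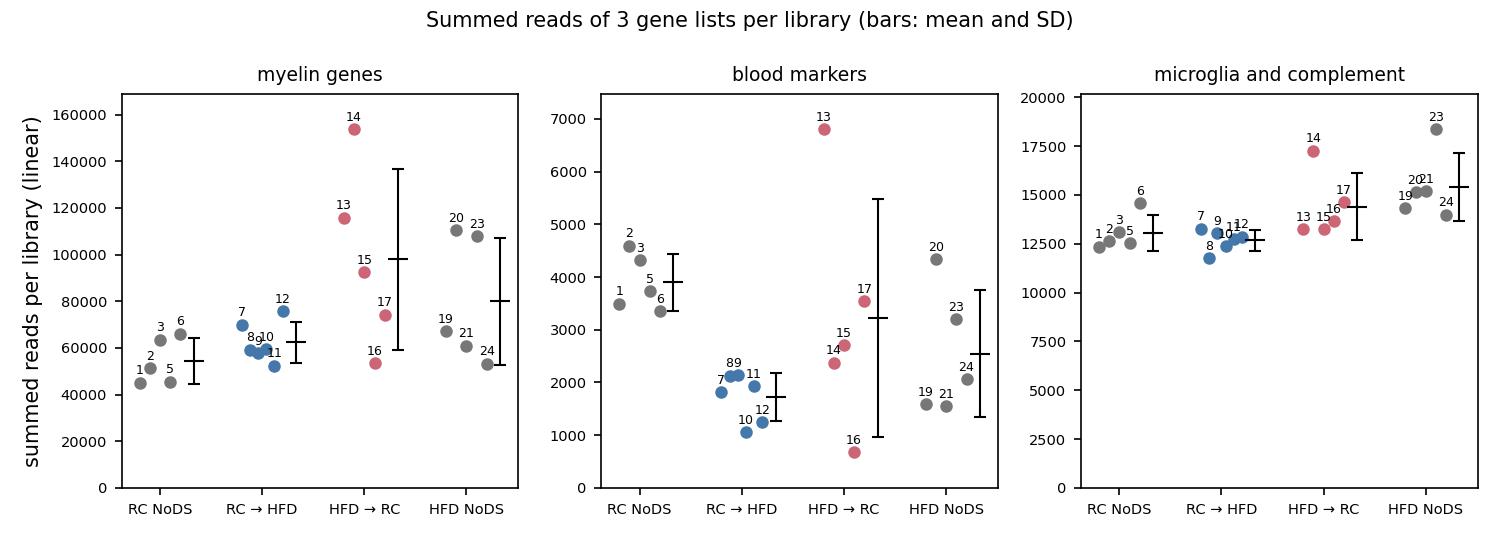
Summed reads per library (vertical axes, linear) of the myelin, blood and microglia and complement lists in the 4 groups, with replicate numbers beside the points and bars for mean and SD. In myelin genes HFD → RC spans 53539 to 153681 reads, with replicate 16 the lowest of its group, and the same replicate has 676 blood reads, the fewest of the libraries shown.

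All 5 tested blood markers were higher, with a median log2 fold change of 0.91, also when scaled by library size. Between the unswitched groups all 5 were higher on RC as well (median 0.64), where the myelin genes had a median of −0.46. Their list summed to 6801, 2373, 2706, 676 and 3543 reads in HFD → RC and 1060 to 2137 in RC → HFD. Replicates 13, 14, 15 and 17 were thus above all RC → HFD libraries and replicate 16 below them all. *Hbb-b1*, a globin chain and the most read of the list, had 3399, 1299, 1326, 327 and 2002 reads against 589 to 1106 (log2 fold change 0.91, standard error 0.314, adjusted p = 0.869). *Alas2*, the enzyme of haem synthesis in red cells, had 170, 87, 62, 10 and 115 against 10 to 53 (1.66, standard error 0.468, adjusted p = 0.647). Without replicate 16 these 2 genes were called, at 1.17 and 1.95, each with an adjusted p of 0.0645. Without replicate 13 *hbb-b1* was at 0.47 and *alas2* at 1.28, and neither was called. *Hbb-b1* and *hbb-b2* are close copies of each other, as are *hba-a1* and *hba-a2*, so reads may be shared out within each pair. The neutrophil markers *s100a8* and *s100a9* had at most 12 and 34 reads, and whether blood in the punch has a part in the other differences was not tested.

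Tissue next to the punch was read at uneven levels. Pituitary markers, hormone genes and others such as *pitx1* and *tbx19*, reached 3039 summed reads in HFD → RC replicate 13. The others of its group had 284, 122, 126 and 550, and RC → HFD had 134 to 2013. *Gh* had 2003 reads in replicate 13 and 480 in RC → HFD replicate 12 and at most 37 in the other 9 libraries, and its log2 fold change was 2.20 with all libraries, −5.75 without replicate 13 and 5.66 without RC → HFD replicate 12. Of the 6 pituitary markers tested 5 were lower in HFD → RC (median −0.76), with *tbx19* at −0.57 (standard error 0.320). *Cga*, the most read over the 21 libraries though not over these 11, was at −0.96 (standard error 0.791). It ran from −1.89 without HFD → RC replicate 13 to −0.44 without RC → HFD replicate 9, and *prl* was at 0 in 8 of the 11 libraries. Of 10 tested markers of meninges and fibroblasts 9 were higher (median 0.20, or 0.39 without replicate 16, and −0.0060 with the molecule covariate). Their summed reads were 4771, 3286, 1047, 1456 and 5803 in HFD → RC and 1489 to 4417 in RC → HFD, and the most read, *igf2*, had 1585, 800, 180, 337 and 2236 reads against 261 to 1398. Replicates 13 and 17 were the highest of all 11 libraries on this list and 15 and 16 the lowest. *Col3a1* was at 0.47 (standard error 0.429), with 0.0034 without replicate 17 and 0.72 without replicate 16, and *igf2* at 0.22, with −0.28 without replicate 17 and 0.49 without replicate 15. The 2 tested choroid plexus markers were lower (median −0.24), *clic6* having 743, 718, 855, 718 and 780 reads against 786 to 997 (log2 fold change −0.25, standard error 0.0808). The part of neighbouring tissue in the other results was not tested.

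Microglial and complement genes were higher in 18 of 20 tested (median log2 fold change 0.19), and between the unswitched groups 18 of 20 were lower on RC (median −0.20). Their summed reads in HFD → RC were 13237, 17266, 13244, 13655 and 14636 against 11759 to 13282 in RC → HFD, so 3 of 5 libraries were above the RC → HFD range and replicates 13 and 15 within it. *C4b*, complement component 4, was the 1 gene of the 20 without overlap, beside 0.486% of all genes. It had 1230, 1593, 1116, 1369 and 1019 reads in HFD → RC and 796 to 964 in RC → HFD (median 849.5). The log2 fold change was 0.53 (adjusted p = 0.688, standard error 0.156) between the DS groups and −1.01 between the unswitched groups (adjusted p = 0.00316). The difference of 1.54 was called (adjusted p = 0.00132, standard error 0.227). Reads of *c4b* cannot be separated with certainty from those of its near copy *c4a*. The complement genes *c1qa* (979, 1368, 1034, 1050 and 1381 reads against 829 to 1043) and *c1qc* (1053, 1470, 1048, 1011 and 1143 against 792 to 1054) each had a log2 fold change of 0.29, *c1qc* 0.18 without replicate 14, while the protease *ctss*, the most read of the list, was at 0.078. Interferon-stimulated genes had a median of −0.0035 over 18 genes, −0.0083 without replicate 16, and 0.011 with the molecule covariate, with *ddx58* at 0.43 (standard error 0.222) and *h2-d1* at −0.038.

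Astrocyte genes were divided. The 10 tested genes of reactive astrocytes had a median of 0.0038, and −0.0045 with the molecule covariate, with 5 higher and 5 lower, whereas 10 of 10 were lower on RC between the unswitched groups (median −0.59). *Gfap*, the astrocyte filament protein, had 5357, 8518, 3402, 2987 and 4057 reads in HFD → RC and 2282 to 3600 in RC → HFD (median 3285). Replicates 13, 14 and 17 were above the RC → HFD range, and replicate 14 by the most, as it was in the myelin sums. The log2 fold change was 0.65 (adjusted p = 0.808, standard error 0.209), or 0.34 without replicate 14, and the difference from the unswitched contrast was 1.47 (adjusted p = 0.0891, standard error 0.303). Of 18 general astrocyte genes 14 were higher, with a median of 0.042 (0.063 without replicate 16) and summed reads of 191740, 197124, 195416, 172662 and 193396 against 179279 to 190673. Replicate 16 was again the lowest of the 11 and the other 4 the highest. *S100b* had 3512, 4487, 3506, 2353 and 3207 reads against 2252 to 2973 (log2 fold change 0.38, standard error 0.116) and was called without replicate 16 (0.49, adjusted p = 0.0651). *Apoe*, the most read, was at 0.090.

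Neuronal genes differed little as a group. The 16 neuronal and axonal genes had a median of 0.020, with 9 higher and 7 lower. *Kif5a*, an axonal motor, was at 0.033, and the GABA neuron genes *slc32a1* (2137, 2095, 2143, 2241 and 2241 reads against 2149 to 2797) and *gad2* (3497, 4746, 4254, 4985 and 4283 against 4417 to 5383) were at −0.17 and −0.18 (standard errors 0.0726 and 0.0952). Of 15 tested GABA receptor subunits 13 were lower (median −0.069, or −0.14 without replicate 16) and 14 of 15 were higher on RC between the unswitched groups (median 0.17). The most read of them, *gabbr1*, was at −0.069 and *gabra4* at 0.20 (standard error 0.135). Of 15 genes of prohormone processing 12 were lower by small amounts (median −0.013, or −0.024 with 6 higher without replicate 16), *ptprn2* at −0.14 (standard error 0.0557) and *pcsk1n* at −0.013. Summed reads of that list overlapped widely, at 152715 to 166002 in HFD → RC and 150574 to 169498 in RC → HFD.

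Other peptides and regional markers had wide ranges between libraries. *Avp*, the vasopressin gene, had 4414, 16531, 8146, 5971 and 5497 reads in HFD → RC and 2924 to 14164 in RC → HFD (log2 fold change −0.39, standard error 0.424, from −0.82 without replicate 14 to −0.23 without replicate 13). *Pmch*, the melanin-concentrating hormone gene of the lateral hypothalamus, had 1405, 535, 739, 1340 and 534 reads against 763 to 2234 (−0.67, standard error 0.374), *qrfp* was at 0.54 (standard error 0.488, and 0.31 without replicate 15) and *hcrt* at 0.44 (standard error 0.494, from 0.20 without replicate 13 to 0.67 without RC → HFD replicate 9). The 3 genes of that list thus did not lie on 1 side, and their median was 0.44, or 0.66 without replicate 16. *Pdyn*, which encodes the dynorphins, had 2812, 4107, 3516, 4160 and 2902 reads against 3628 to 4550, with 3 of 5 below the RC → HFD range (−0.28, standard error 0.0886, adjusted p = 0.798). Over 21 neuropeptide genes the median was −0.082, or −0.047 without replicate 16, with 10 higher. Over 5 paraventricular markers it was −0.15, or −0.047 without replicate 16 (*pou3f2* at −0.30, standard error 0.311, from −0.48 without replicate 15 to −0.10 without replicate 17). For 8 ventromedial markers it was 0.12, or 0.076 without replicate 16, with 6 higher, *slc17a6* at 0.15 (0.24 without replicate 14) and *sox14* at 0.25, or 0.15 without replicate 15. Over 7 dorsomedial, mammillary and suprachiasmatic markers the median was −0.096, or −0.020 without replicate 16. *Foxb1*, a mammillary marker, had 397, 21, 27, 19 and 250 reads against 42 to 80, so that 2 libraries were above and 3 below all of RC → HFD, with a log2 fold change of 1.29 (standard error 0.549), or 0.44 without replicate 13, while *hmx3* was at −0.53 (standard error 0.221) and *six3* at −0.096. Thalamic markers had a median of −0.030, 0.0016 without replicate 16 and 0.025 with the molecule covariate, and *rgs16* was at −0.16. Those of cortex, hippocampus and striatum had one of −0.039, with *pde10a* at −0.093 and *camk2a* at −0.048. Tanycyte markers were higher in 13 of 15, with a median of 0.13, *cd59a* at 0.35 (standard error 0.225) and *col23a1* at 0.0053. Among 11 genes of the thyroid hormone axis 8 were higher (median 0.035), or 6 without replicate 16 (median 0.0066), with *hr* at −0.28 (standard error 0.160) and *thra* at 0.035.

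Genes that respond to time awake, stress hormones and temperature were set out because all mice had been kept awake. Of 8 tested genes of wake signalling 5 were higher (median 0.098), or 4 without replicate 16 (median 0.0098). Among these 8 genes *adora1* was the 1 without overlap, beside 0.486% of all genes. *Nt5e*, which makes adenosine outside cells, had 142, 112, 96, 82 and 121 reads in HFD → RC and 16 to 91 in RC → HFD, with 4 of 5 above that range (log2 fold change 0.80, standard error 0.311, adjusted p = 0.899), and *hrh3*, a histamine receptor, was at −0.11. Immediate early genes had 9 of 18 higher (median 0.032, 0.059 without replicate 16 and −0.028 with the molecule covariate), with *egr1* at 596, 640, 503, 563 and 765 reads against 371 to 589 (0.33, standard error 0.125), *btg2* at 0.28 and *jund* at −0.10. Clock genes had a median of −0.011 over 19, with *rorb* at −0.47 (standard error 0.182), 4 of 5 libraries being below all RC → HFD libraries, *rora* at −0.27 (−0.15 without replicate 17) and *tef* at −0.041. Of 15 genes of the glucocorticoid receptor and its targets 11 were higher (median 0.10). *Sgk1*, a kinase induced by glucocorticoids and abundant in oligodendrocytes, had 1419, 1135, 940, 655 and 1343 reads against 575 to 991 (log2 fold change 0.62, standard error 0.198, adjusted p = 0.789) and was called without replicate 16 (0.76, adjusted p = 0.142). *Arl4d* was at 1.11 (standard error 0.438), with 163, 331, 125, 35 and 238 reads against 45 to 123, *errfi1* at 0.42 (0.23 without replicate 17) and *tsc22d3*, the most read target, at 0.081. Replicate 16 was the lowest of its group in *sgk1*, *arl4d* and *errfi1* alike. The cold-inducible genes *rbm3* and *cirbp* were both higher. *Rbm3* had 911, 842, 948, 730 and 631 reads against 533 to 684, with replicate 17 inside the RC → HFD range, and its log2 fold change of 0.42 was not called (adjusted p = 0.590, standard error 0.102). Leaving out HFD → RC replicate 17 (0.50) or HFD → RC replicate 16 (0.45, adjusted p = 0.0979) brought a call, and *cirbp* was at 0.13 (standard error 0.0928). Heat shock chaperones had 9 of 18 higher with a median of 0.0012, −0.0029 without replicate 16 and −0.0043 with the molecule covariate. *Cryab*, which oligodendrocytes also express, was at 0.51 (standard error 0.205, and 0.31 without replicate 14), *bag3* at 0.30 and *hsp90ab1* at 0.0054.

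Metabolic genes differed by small amounts. Of 82 cytosolic ribosomal protein genes 74 were higher, or 76 with scaling by library size, with a median log2 fold change of 0.059, *rpl31* at 0.19 (standard error 0.0641) and *rpl4*, the most read, at 0.046. Their summed reads were 349026, 368899, 318430, 327563 and 358024 in HFD → RC and 313294 to 337582 in RC → HFD, with 3 of 5 above that range. Of 74 subunits of oxidative phosphorylation 44 were higher (median 0.023), or 53 without replicate 16 (median 0.047), *atp5g2* at −0.25 (standard error 0.110) and *atp5b* at 0.022. Fatty acid oxidation had 14 of 24 higher (median 0.053), with *etfb* at 1056, 915, 828, 837 and 1356 reads against 675 to 871 (0.33, standard error 0.124, and 0.19 without replicate 17). Cholesterol synthesis had 12 of 21 higher (median 0.018, or 0.0086 without replicate 16), with *lss* at 866, 649, 646, 700 and 736 reads against 567 to 676 (0.23, standard error 0.0961) and *srebf2* at −0.039. The other 13 lists, on ependyma, the growth axis, dopamine neurons, endoplasmic reticulum stress, NF-kB and toll-like receptors, endothelium, glycolysis, the tricarboxylic acid cycle, fatty acid synthesis, mitochondrial ribosomal proteins, glutamate receptors, potassium channels and collagens, had medians from −0.12 to 0.032, of which those of ependyma, the growth axis, dopamine neurons, endothelium and glycolysis changed sign with the molecule covariate. Without replicate 16 the medians of ependyma, endoplasmic reticulum stress, endothelium, mitochondrial ribosomal proteins and collagens changed sign. None of their 347 tested genes had counts without overlap, against 0.486% of all genes, and edgeR called none of them with all libraries (0.00783% of all genes) or without replicate 16 (0.321%). These counts of 0 are near the shares over all genes.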

How the data were processed

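The authors deposited counts of reads, whole numbers for each gene in each of 21 VH libraries. The submitters' processing notes name mm9, STAR 2.5.1b and Picard 2.7.1, and the study's methods name removal of ribosomal RNA and mitochondrial reads and re-sampling of each library to a common depth. Counts of the 11 DS libraries ran from 16381363 to 16390598 in all. Reads are not independent molecules, so no test used counting error alone, and each takes in the spread between libraries. Genes averaging at least 50 reads were scaled by TMM (factors 0.982 to 1.00 in the 11 libraries). The quasi-likelihood F-test of edgeR 4.0.16 (R 4.3.3) was used on a model of 4 group means. Benjamini-Hochberg adjusted p under 0.15 over all genes tested made a call. Standard errors are the log2 fold change over the square root of F. Library measures had exact two-sided permutation tests (Python 3.11.15, scipy 1.17.1, numpy 2.4.6, pandas 2.3.3), and figures were drawn with matplotlib 3.10.9. The code was first tested on simulated data.

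The members and the 52 gene lists were chosen with earlier results of these data known, so lists have counts and medians and no test. Named genes are the called gene, the 12 higher and 12 lower genes of smallest p without overlap, 8 genes called in fits without 1 library, all members of the 2 peptide lists, and from each other list described 1 to 3 genes of smallest p and the most read gene. The other genes named were chosen after their values were seen. Positions are those of the mm9 annotation. Alternatives were DESeq2 1.42.0, limma 3.58.1 (voom, and trend on log2(count + 1)), other filters and scalings, a robust dispersion, the 11 DS libraries alone, reads summed by symbol, an estimate of distinct molecules as a covariate, and each library left out in turn, with 34 planned settings for the number of called genes and 50 added. Behaviour, blood and body weight data are not in the deposited counts and were left out.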

Additional observations from a re-analysis of the deposited data

Results flagged for a closer look

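Of 248 sets of libraries of 1 group checked, 18 held a library far from the others of its group, measured by its gap to the nearest library over the whole range, and chance alone gives about 1 in 20. HFD → RC replicate 13 had 2003 *gh* reads, 3039 summed pituitary reads and 619 *med17* reads, each the highest of its group. RC → HFD replicate 12 had the highest counts of *gh* (480), *trh* (2047), *rgs16* (1260) and summed thalamic markers (2034) in its group and the lowest of *ntrk2* (19491) and summed choroid plexus markers (1106). HFD → RC replicate 17 was lowest for *cisd3* (257) and *zfp81* (96) and highest for *btg2* (371) and *hsp90ab1* (50082). HFD → RC replicate 14 was highest for *jund* (3653) and *c1qc* (1470), and HFD → RC replicate 15 for *rgs16* (816). RC → HFD replicate 8 was lowest for *gpr17* (1236) and RC → HFD replicate 9 highest for *cirbp* (1652). The myelin sum and the *mbp* count of HFD → RC replicate 16 were not among these, since its group was widely spread on both.

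For 9 genes edgeR, over all genes, called the difference between the RC against HFD contrasts of switched and unswitched mice. Such a difference is also a contrast of earlier HFD over earlier RC, so it need not mean that switching changed an effect of present diet. Of the 9 genes, 7 are given here, and *plekhh1* and *stmn4*, named after their values were seen, are left out. The differences in log2 fold change were 1.95 for *trh*, 1.56 for *mobp*, 1.54 for *c4b*, 1.50 for *mbp*, 1.47 for *gfap*, 1.31 for *prr18* and 0.71 for *adora1*. Of the 21 fits that left out 1 library, *trh* and *c4b* were called in 21, *adora1* in 18, *prr18* in 11, *mobp* and *gfap* in 10 each and *mbp* in 8. Of these 7 genes only *trh*, *adora1* and *c4b* were called by limma-voom, and the same by edgeR with a robust dispersion. The cause was not tested.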

How the results depend on the processing

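The number of genes called between the DS groups was 1 with all libraries. It was 3 without a filter (*npy*, *agrp* and *tk1*) and 2 with genes averaging 5 or more reads (*npy* and *tk1*). EdgeR with a robust dispersion called 0, where DESeq2 called 5 (among them *npy*, *agrp*, *dhrs3* and *myo5b*), limma-voom 1 (*npy*), and 683 genes had an unadjusted p under 0.05 by edgeR without that option. Leaving out 1 library gave 1 to 41. *Npy* kept its log2 fold change of 0.94 with a robust dispersion and was not called (adjusted p = 0.530). DESeq2 called *agrp* (adjusted p = 0.120, log2 fold change 0.90), as did edgeR with no filter (adjusted p = 0.0772, log2 fold change 0.90), and leaving out 1 library gave 0.71 to 1.06. Genes without overlap numbered 89 to 225 when 1 library was left out, which cannot lower their number. The difference in *agrp* between the contrasts ran from −0.25 to 0.091 in such fits, and its cause was not tested.

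Settings for the number of called differences were chosen after the data were seen. DESeq2 called 32, limma-voom 3 (*trh*, *adora1* and *c4b*) and edgeR with a robust dispersion 5 (*trh*, *adora1*, *c4b*, *stmn4* and *plekhh1*), against 9 as reported, and leaving out 1 library gave 2 to 70.

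Of 3662 values of the 111 other named genes under these settings, 3616 kept their direction and side of the threshold, 20 were newly called and 26, in 11 genes, changed direction. *Igf2* was at −0.16 with limma-voom and with limma-trend and at −0.052 with an estimate of distinct molecules as covariate, a setting that also gave −0.031 for *col23a1* and −0.0040 for *hsp90ab1*. When 1 library was left out, the log2 fold change ran from −0.28 to 0.49 for *igf2*, −0.11 to 0.091 for *col23a1*, −0.032 to 0.019 for *hsp90ab1*, −0.20 to 0.0086 for *six3*, −0.34 to 0.16 for *rgs16*, −0.027 to 0.033 for *ntrk2*, −5.75 to 5.66 for *gh*, −0.10 to 0.043 for *pcsk1n*, −0.0031 to 0.14 for *tsc22d3*, −0.086 to 0.043 for *h2-d1* and −0.040 to 0.10 for *kif5a*. None of these 11 genes was called as reported, and the cause was not tested. Genes that kept their direction moved as well when 1 library was left out. The log2 fold change ran from 0.018 to 0.15 for *apoe*, 0.016 to 0.12 for *ctss* and −0.23 to −0.11 for *gad2*. It ran from 0.0048 to 0.053 for *atp5b*, 0.0064 to 0.068 for *thra* and −0.18 to −0.059 for *jund*. Of 52 list medians, 3 moved by more than the spread between libraries in some setting. With the molecule covariate the median was −0.041 for clock genes, −0.063 for leptin and JAK-STAT signalling and 0.0027 for neuronal and axonal genes. It was −0.085 for arcuate markers, 0.023 for energy sensing, 0.052 for wake signalling and −0.035 for GABA receptor subunits. For neuropeptides it was −0.046, for feeding receptors 0.014, for fatty acid oxidation 0.085 and for cholesterol synthesis 0.010. No paired analysis was possible because replicate numbers are not shared between the groups.

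With 5 libraries against 6 and a median standard error of 0.129 on the log2 scale, small differences in single genes would not be called, and each library averages 2 mice. Punches differed in neighbouring tissue and blood, and present diet, past diet and energy balance cannot be told apart between the groups.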
